A study of Homo sapiens with 6 samples.

Results

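Peaks of RNA precipitated with an antibody against N1-methylguanosine (m1G) are described here for 10 genes at the core of the Hippo pathway, YAP1, WWTR1, TEAD1, TEAD2, TEAD3, TEAD4, LATS1, LATS2, NF2 and SAV1. They were taken as named genes, and a peak belonged to one of them when it overlapped the gene's span on GRCh38. The 10 genes stand among 20056 protein-coding genes of the RefSeq gene table. They held 14 of the 18431 peaks that the program MeTDiff called and 1 of the 6264 summits (1-bp peak tops) that the program MACS2 called. The RNA came from PANC-1, an established human cell line of pancreatic ductal adenocarcinoma. Control cells (labelled WT control) gave 1 input library and 2 m1G precipitates. Cells in which TRMT5, a tRNA guanosine methyltransferase, was depleted by siRNA (labelled TRMT5 KD) for 4 days gave 1 input library and 2 m1G precipitates. All 6 libraries came from polyA-selected, fragmented RNA of transfected cells and belong to experiment 1, batch I. Neither peak list separates the conditions or the libraries, so each fold, score and false discovery rate (FDR) is the authors' single value without replicate error, the depth behind it is unknown, and control and TRMT5-depleted cells are not compared.

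The Hippo pathway restrains growth through a chain of kinases. SAV1 is the scaffold that joins the upstream MST kinases to LATS1 and LATS2, and merlin, the product of NF2, brings the LATS kinases to the plasma membrane. LATS1 and LATS2 phosphorylate the transcriptional co-activators YAP (YAP1) and TAZ (WWTR1), which are then kept in the cytoplasm or degraded. Without that mark YAP and TAZ enter the nucleus and bind the TEAD factors, which carry the DNA-binding domain, and target genes of growth and adhesion are switched on.

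Peaks next to a start site included the strongest of the group, and the DNA around that site is shown for the 4 genes that had a peak midpoint within 500 bp downstream of a start site listed in the RefSeq promoter table (GRCh38.p14). Of the 10 genes, 8 have an entry there. Each sequence runs 5′ to 3′ on the strand of the gene and holds 250 bases before the start site and the first 30 transcribed bases, which are in capitals at the end. Capitals within the lower-case part mark GGAATG, the letters of the TEAD binding motif, searched on both strands. The peaks themselves begin further downstream and are not part of these windows. The windows are chr11:102110197-102110476 (plus strand) for YAP1, chr3:149657996-149658275 (minus strand) for WWTR1, chr14:50668277-50668556 (minus strand) for SAV1 and chr22:29603383-29603662 (plus strand) for NF2.
YAP1: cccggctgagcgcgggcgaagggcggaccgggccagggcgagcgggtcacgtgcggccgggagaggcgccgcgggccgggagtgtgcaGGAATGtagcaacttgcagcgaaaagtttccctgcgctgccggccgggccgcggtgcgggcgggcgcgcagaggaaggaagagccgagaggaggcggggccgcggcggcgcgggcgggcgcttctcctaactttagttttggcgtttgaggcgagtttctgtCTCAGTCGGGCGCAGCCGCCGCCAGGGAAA
WWTR1: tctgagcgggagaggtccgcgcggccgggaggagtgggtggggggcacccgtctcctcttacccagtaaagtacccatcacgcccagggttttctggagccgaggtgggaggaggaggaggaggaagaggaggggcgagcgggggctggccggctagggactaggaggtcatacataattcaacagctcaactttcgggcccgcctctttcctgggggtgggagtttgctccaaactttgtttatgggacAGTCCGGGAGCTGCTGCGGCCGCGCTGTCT
SAV1: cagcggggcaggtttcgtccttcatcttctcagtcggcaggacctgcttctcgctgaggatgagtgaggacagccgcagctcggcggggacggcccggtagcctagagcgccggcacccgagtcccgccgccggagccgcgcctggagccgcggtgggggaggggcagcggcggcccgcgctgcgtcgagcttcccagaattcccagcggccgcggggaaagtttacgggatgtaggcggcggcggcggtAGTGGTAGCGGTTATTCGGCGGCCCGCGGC
NF2: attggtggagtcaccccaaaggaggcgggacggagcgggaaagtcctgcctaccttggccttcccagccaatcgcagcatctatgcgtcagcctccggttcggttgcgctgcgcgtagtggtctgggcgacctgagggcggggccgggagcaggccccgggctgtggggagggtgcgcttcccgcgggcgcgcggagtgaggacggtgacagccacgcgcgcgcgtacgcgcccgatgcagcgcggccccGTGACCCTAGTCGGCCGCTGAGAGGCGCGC

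The GGAATG motif occurred once in the YAP1 window, with its first base at position -162 from the start site, and was not found in the other 3. Of the 35116 windows of this length in the table, 13.3% held it on either strand. G and C made up 72.1% of the YAP1 window, 71.8% of each of the SAV1 and NF2 windows and 63.2% of the WWTR1 window, against a median of 58.2% over all windows. CG dinucleotides numbered 40 for YAP1, 38 for SAV1, 36 for NF2 and 17 for WWTR1, with a median of 13. These are descriptions of the sequence next to the peaks. No factor binding was measured, and the bases under the peaks were not analysed here.

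Of the 10 genes, 9 had a MeTDiff peak on their own strand (90.0%, 95% Wilson interval 59.6 to 98.2), and LATS1 had none. Among all protein-coding genes 37.2% had one by the same rule. A longer span has more room for a peak, and span length was not adjusted for. The spans of the 10 genes ran from 21822 to 270317 bp. All but those of TEAD2 and TEAD3 exceeded 27581 bp, the median over protein-coding genes with a peak. Only 1 of the 10 held a MACS2 summit (10.0%, interval 1.79 to 40.4), and this was YAP1. Among all protein-coding genes 18.0% held a summit, and among those with a MeTDiff peak 45.2% did, compared with 1 of the 9 here (11.1%, interval 1.99 to 43.5). Intervals cover counting error only, and no test was made because the genes were named with results of these lists known. A transcript must be present to be precipitated, and no expression values are at hand, so genes without a peak and genes with too little RNA cannot be told apart.

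**Figure D1:**
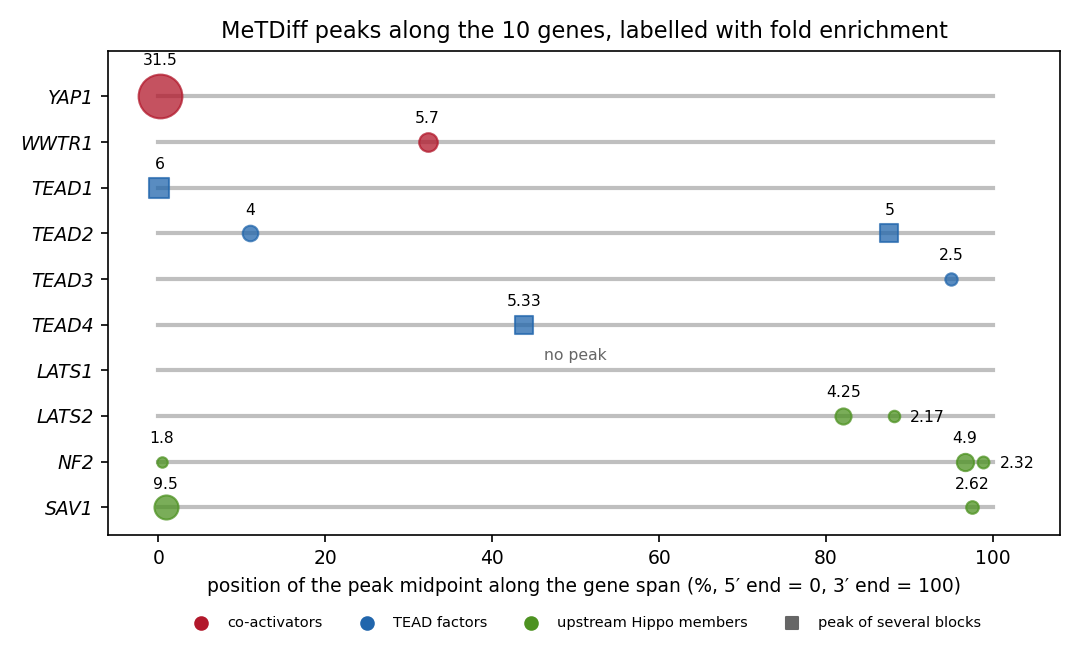
Place of each MeTDiff peak along its gene, as percent of the gene span from the 5′ end (0) to the 3′ end (100), with marker area proportional to the fold enrichment written beside it. Colours mark co-activators, TEAD factors and upstream members, and squares mark peaks made of several blocks. Midpoints of 4 peaks, in YAP1, TEAD1, NF2 and SAV1, lie between 0.129% and 0.858% of the span, and LATS1 has no peak.

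YAP1, the co-activator that gives the pathway its output, carried the strongest peak of the group. Its only MeTDiff peak (chromosome 11, 102110596 to 102110894, plus strand) covered 299 bp and had 31.5-fold enrichment of precipitate over input, at an FDR of 0.00162. That fold was 3.32 times the next largest among the 10 genes, the 9.5-fold peak of SAV1. Of the 7463 protein-coding genes with a peak, 106 (1.42%) had a largest fold at or above it, YAP1 included. The peak ran from 149 to 447 bp downstream of the start site, in a gene that spans 122978 bp, which puts its midpoint at 0.242% of the span, and no further peak was called in the gene.

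The single summit of the group lay inside this YAP1 peak, at 102110618, which is base 23 of the peak and 171 bp downstream of the start site. Its score (MACS2 writes a p-value or q-value here as −log10) was 19.2. The median over all summits was 16.4, and 41.2% of summits scored at or above 19.2. Thus YAP1 stood high in the MeTDiff list by fold and near the middle of the MACS2 list by score. For all summits within protein-coding spans, 36.9% lay inside a MeTDiff peak of the gene. The span of YAP1 begins inside that of the noncoding gene YAP1-DT, whose span ends before the peak starts.

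WWTR1, which encodes TAZ, the paralog of YAP, also had 1 peak next to a start site, but not the outermost one. The peak (chromosome 3, 149657752 to 149657902, minus strand) covered 151 bp with 5.7-fold enrichment. Its midpoint lay 66961 bp from the 5′ end of the span, at 32.3% of its length, and 198 bp downstream of a second start site, at 149658025, that the promoter table lists for the gene. Its FDR of 2.82e-05 was the lowest of the 14 peaks, and 9.0% of all peaks had an FDR as low. No summit lay anywhere in the gene.

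A second MeTDiff peak occupied the same place on the opposite strand of WWTR1. It carried the other gene ID ENSG00000241313, ran from 149657774 to 149657921, and had 5.0-fold enrichment at an FDR of 0.000631. The strands shared 129 bp of the 151 bp, and no other gene of the table spans that place. The gene WWTR1-AS1 overlaps the span of WWTR1 elsewhere, and whether the other ID belongs to it was not checked. Whether the libraries kept strand is not given in the sources used here. RNA from either strand therefore cannot be told apart in these values, and the peak of WWTR1 is uncertain to that extent. It was the only one of the 14 that overlapped a peak of the opposite strand.

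**Figure D2:**
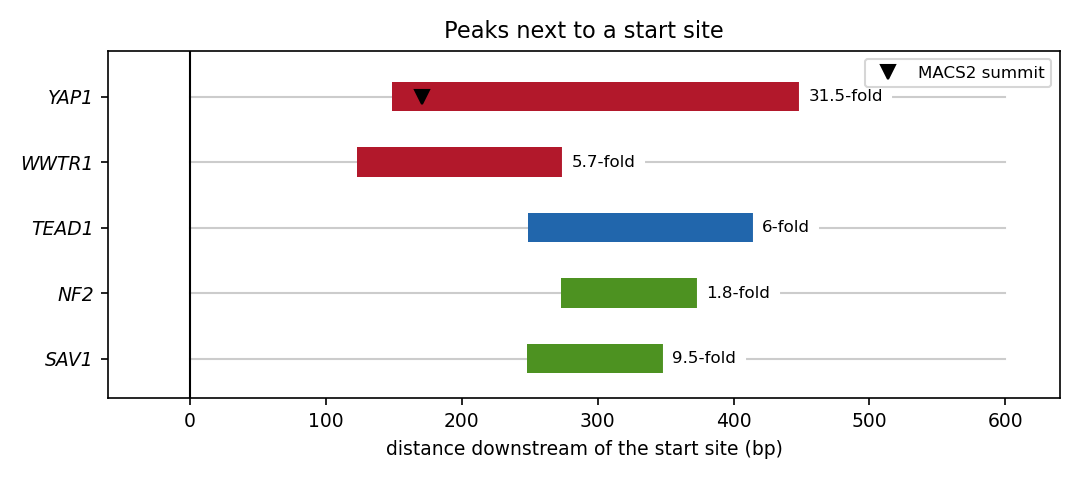
Distance in bp downstream of the start site for the peaks of 5 genes, as bars labelled with their fold enrichment, with the YAP1 summit as a triangle. For TEAD1, which has no promoter table entry, the 5′ end of the gene span is taken as the start and the first block of the peak is drawn. The bars lie between 123 and 447 bp from the start, and the YAP1 bar, at 31.5-fold, is the longest.

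The midpoint of a peak made of several blocks was taken along the joined blocks, leaving out the gaps. The TEAD genes encode the DNA-binding partners of YAP and TAZ, and all 4 had a peak, between 2.5-fold and 6.0-fold at their largest. TEAD1 had a peak at its 5′ end (chromosome 11, 12674670 to 12675443, plus strand) with 6.0-fold enrichment and an FDR of 0.00324. It joined a block of 165 bp, beginning 249 bp from the 5′ end, to one of 35 bp across a gap of 574 bp. Its midpoint lay 348 bp from the 5′ end, and the middle of its whole extent, gap included, 635 bp. TEAD4 had 1 peak in its interior (chromosome 12, 2994918 to 3012178, plus strand) with 5.33-fold enrichment and an FDR of 0.00363. This peak consisted of blocks of 75, 65 and 9 bp separated by gaps of 16011 and 1101 bp, and its midpoint fell in the first block, at 43.8% of the span (54.3% for the middle of the whole extent).

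TEAD2 was the TEAD gene with more than 1 peak. The first (chromosome 19, 49359922 to 49360121, minus strand) covered 200 bp with 4.0-fold enrichment at an FDR of 0.00229, 1496 bp downstream of the nearest listed start site. The second (49342538 to 49347218) joined 3 blocks of 29, 168 and 53 bp over gaps of 3791 and 640 bp, with 5.0-fold enrichment at an FDR of 0.0105, at 87.6% of the span (80.4% for the middle of the whole extent). TEAD3 had the weakest largest fold of the 9 genes with a peak, 2.5, in the longest of the 14 peaks, 351 bp (chromosome 6, 35474596 to 35474946, minus strand, FDR 0.00479). It lay 1174 bp from the 3′ end.

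The TEAD family thus showed no common place for its peaks, which lay at the 5′ end in TEAD1, in the interior in TEAD4, on both sides of the interior in TEAD2 and towards the 3′ end in TEAD3. The 3 peaks of several blocks in the group were those of TEAD1, TEAD2 and TEAD4. They made 21.4% of the 14 peaks (interval 7.57 to 47.6), against 33.9% of the MeTDiff peaks of protein-coding genes. The largest folds, 6.0 in TEAD1, 5.33 in TEAD4, 5.0 in TEAD2 and 2.5 in TEAD3, carry no replicate error, so their order was not tested.

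Of the LATS kinases, which phosphorylate YAP and TAZ, LATS2 had peaks and LATS1 had none. The stronger LATS2 peak (chromosome 13, 20988851 to 20989000, minus strand) had 4.25-fold enrichment over 150 bp at an FDR of 0.000234. The other (20983535 to 20983634) had 2.17-fold enrichment over 100 bp at an FDR of 0.0457, close to the highest FDR in the list, 0.0501. Both lay in the 3′ part of the gene, with midpoints at 82.1% and 88.1% of the span. Around LATS1 (chromosome 6, 149658153 to 149718101, minus strand) the only peak within 10000 bp outside the span lay 9479 bp away, in the span of KATNA1.

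NF2, the merlin gene, had 3 peaks, the most of the 10 genes. Its largest fold, 4.9, lay below the median largest fold of protein-coding genes, 6.04, and above the median of all peaks, 4.24. From the 5′ end the peaks had folds of 1.8 (chromosome 22, 29603906 to 29604005, plus strand), 4.9 (29695352 to 29695502) and 2.32 (29697350 to 29697549). Their FDR values were 0.00427, 0.00479 and 0.0107 in the same order. The first, with the lowest fold of the 14 peaks, lay 322 bp downstream of the listed start site at 29603633, and the other 2 lay at 96.7% and 98.8% of a span of 95045 bp. Between the first and the second peak 91346 bp of the gene held no peak.

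SAV1, the scaffold gene, had the largest fold after YAP1 and a peak near each end. The 5′ peak (chromosome 14, 50667959 to 50668058, minus strand) had 9.5-fold enrichment at an FDR of 0.000117, with its midpoint 298 bp downstream of the start site, the same distance as in YAP1. The 3′ peak (50634389 to 50634488) had 2.62-fold enrichment at an FDR of 0.000589, 858 bp from the 3′ end. Each covered 100 bp. SAV1 and NF2 therefore shared the pattern of a peak near the start and one or more near the 3′ end, but SAV1 had its larger fold at the start and NF2 its lowest.

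A midpoint no more than 500 bp from the 5′ end occurred in 4 of the 9 genes with a peak (44.4%, interval 18.9 to 73.3), and in 38.7% of all protein-coding genes with a peak. With the middle of the whole extent it was 3 of the 9, without TEAD1. Counted downstream of any listed start site, it was 4 of the 7 genes with a peak and an entry (57.1%, interval 25.0 to 84.2), against 45.4% of such protein-coding genes. Which genes these 4 were differed, since WWTR1 entered and TEAD1, without an entry, left. Within 500 bp of the 3′ end there was a peak in 0 of the 9 genes (interval 0 to 29.9), against 15.2% of protein-coding genes with a peak. These shares of the group and of all genes lie within the intervals given.

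The 4 peaks at the 5′ end had folds of 31.5, 9.5, 6.0 and 1.8, with a median of 7.75, and the other 10 ran from 2.17 to 5.7 with a median of 4.12. Over the protein-coding genes the median was 5.5 for the 3162 peaks at the 5′ end so defined and 4.0 for 15106 peaks elsewhere. The NF2 peak shows that a place near the 5′ end did not always come with a high fold. Midpoints of the 4 peaks downstream of a listed start site, in WWTR1, YAP1, SAV1 and NF2, were 198, 298, 298 and 322 bp from it, and the median over 3103 such peaks of protein-coding genes was 150 bp.

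**Figure D3:**
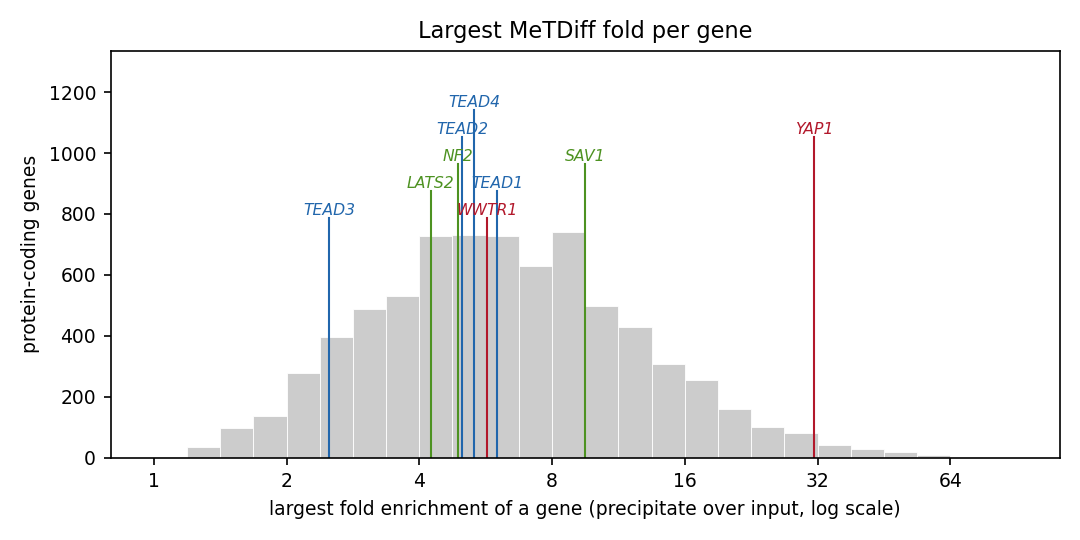
Histogram of the largest fold enrichment of each protein-coding gene with a MeTDiff peak (log scale on the x axis, number of genes on the y axis), with lines for the 9 genes described. YAP1, at 31.5, stands in the upper tail, SAV1 is at 9.5, and the other 7 lie between 2.5 and 6.0.

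Apart from YAP1 and SAV1 the largest folds lay below the median of genes with a peak, in 7 of the 8 genes other than YAP1. The median of the largest fold was 5.33 over the 9 genes, from 2.5 to 31.5, and 6.04 over the 7463 protein-coding genes with a peak. SAV1 ranked 2056, TEAD1 3831 and WWTR1 3999 among them, and TEAD3 ranked 6847. Of the 9 genes 5 had 1 peak (55.6%), 3 had 2 and NF2 had 3. Protein-coding genes with a peak had a median of 2, and 3259 of the 7463 had 1 (43.7%), 1766 had 2, 989 had 3 and 1449 had 4 or more. A gene with fewer peaks has fewer chances of a large fold, so the largest folds are not compared on equal terms. Per peak, the median fold was 4.58 over the 14 peaks of the group and 4.24 over the 18431 of the whole list. The peaks of the group covered a median of 151 bp of transcript, from 100 to 351 bp, and those of the whole list 150 bp.

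The FDR ordered the peaks differently from the fold. The median FDR was 0.00343 over the 14 peaks and 0.00129 over the whole list. YAP1, first by fold, had an FDR that 55.0% of all peaks matched or undercut. WWTR1, SAV1 and LATS2, with folds of 5.7, 9.5 and 4.25, had the 3 lowest FDR values of the group. The deposited MeTDiff p-values did not keep the order of the FDR. The weaker LATS2 peak had a MeTDiff p-value of 0.0039 at an FDR of 0.0457, and the last NF2 peak 0.0065 at an FDR of 0.0107. Of the 14 folds 7 were multiples of 0.25 within 0.005 (50.0%, interval 26.8 to 73.2), the 31.5 of YAP1 among them, and 7 were not, compared with 38.6% multiples in the whole list. The read counts behind these ratios were not analysed here.

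**Figure D4:**
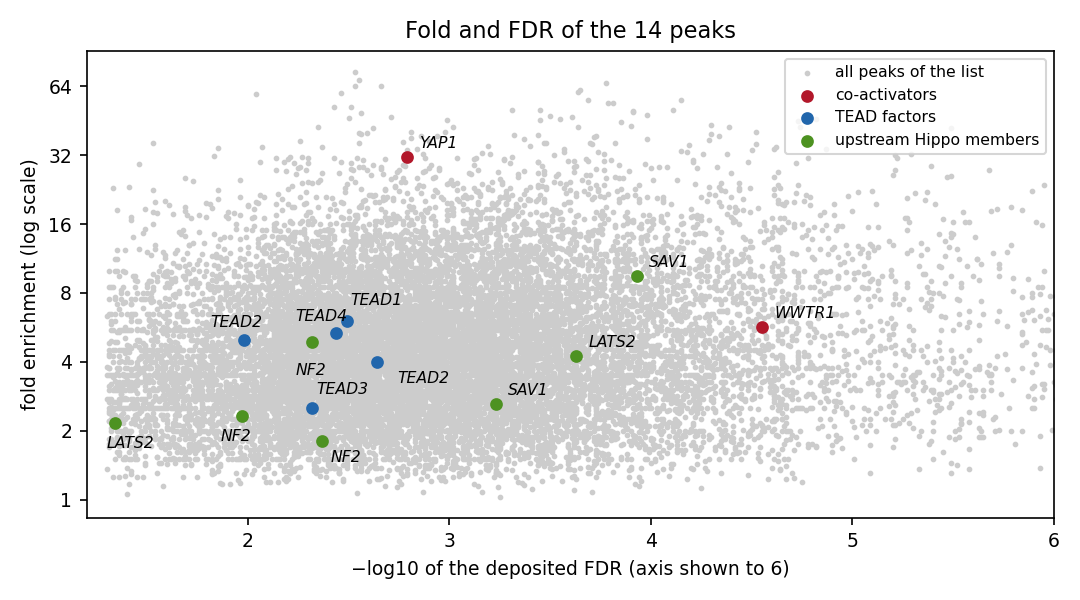
Fold enrichment (log scale) against the −log10 of the deposited FDR for all MeTDiff peaks (grey) and the 14 peaks of the group (coloured by role). The axis ends at 6, and 772 peaks of the list lie beyond it. Among the 14, YAP1 is highest, at 31.5-fold with an FDR of 0.00162, and WWTR1 is farthest right, at 2.82e-05.

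The rest of the pathway was described from 5 wider lists, in which the largest fold and the highest score of a gene were taken separately and can belong to different places. For comparison with each list, 37.2% of all protein-coding genes had a MeTDiff peak and 18.0% a summit. The median largest fold of those with a peak was 6.04. Span length was not adjusted for in these lists either. Among 21 upstream kinases and scaffolds 15 had a MeTDiff peak (71.4%) and 7 a summit (33.3%), and the median largest fold was 7.3. The largest folds belonged to the MAP4K family kinase genes MAP4K2, with 11, and MAP4K3, with 8.75, and to the KIBRA family genes WWC1, with 9.75, and WWC3, with 9.0. MAP4K2 had a highest score of 22.4 and MAP4K5 of 22.2, both at summits outside their MeTDiff peaks. In WWC1 and MAP4K3 the peak of largest fold lay 405 and 207 bp from the 5′ end and contained a summit, as in YAP1. Of the MST kinase genes, the partners of SAV1, STK3 had a single peak of 1.27-fold and STK4 had none; both were looked up after their values were seen.

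Of the 20056 protein-coding genes, 7463 had a peak and 106 had a largest fold at or above that of YAP1, YAP1 included. Folds above that of YAP1 occurred in 4 of 20 genes of cell polarity, cadherins and junctions and in no gene of the other 4 wider lists. These were the giant cadherin gene FAT1, with 53.9-fold enrichment and a highest score of 67.4, the scaffold genes DLG5, with 51.8-fold, and SCRIB, with 42.2-fold, and the LIM-domain gene WTIP, with 37.2-fold and a score of 71.7. In WTIP the peak lay 449 bp from the 5′ end and contained the summit of that score, whereas both summits of FAT1 lay outside its MeTDiff peaks. All 3 summits of DLG5 also lay outside its peaks. In SCRIB 1 of 6 summits lay inside a peak, but not inside that of largest fold. Over all protein-coding spans 36.9% of summits lay inside a MeTDiff peak of the gene. Of this list 12 had a MeTDiff peak (60.0%) and 8 a summit (40.0%), with a median largest fold of 7.8.

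The STRIPAK complex, a phosphatase assembly that opposes the MST kinases, had a MeTDiff peak in 12 of 16 genes (75.0%) and a summit in 6 (37.5%). Its median largest fold was 3.48. STRN4 had 19-fold enrichment, the kinase gene STK25 14-fold with a highest score of 58.1, the catalytic subunit gene PPP2CA 5.78-fold with a score of 40.6, and SLMAP 5.33-fold. The STK25 peak contained the summit of that score, and the PPP2CA summit lay outside the MeTDiff peaks of the gene. Of 18 genes for partners and degradation of YAP and TAZ 12 had a MeTDiff peak (66.7%) and 6 a summit (33.3%), with a median largest fold of 4.78. The casein kinase genes CSNK1E and CSNK1D, whose products take part in the degradation of YAP, had 17-fold and 10.7-fold enrichment. FBXW11, a ubiquitin ligase subunit gene, had 9.84-fold enrichment and, outside its MeTDiff peaks, a summit of score 53.5. RUNX1 had 7.5-fold enrichment, and the 14-3-3 gene YWHAG a score of 36.2.

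Target genes of YAP and TEAD had a MeTDiff peak in 12 of 22 cases (54.5%) and a summit in 10 (45.5%), with a median largest fold of 6.38. CRIM1 had 26.6-fold enrichment 373 bp from its 5′ end, in a peak that contained its summit of score 63.8. FJX1 reached 23.3-fold and had a highest score of 37.1 outside its MeTDiff peaks. The gene CCN1, which encodes a matricellular protein, reached 15.3-fold, and the angiomotin family gene AMOTL2 9.75-fold. LATS2 is in this list as well as among the 10 genes, and AMOTL2 and PTPN14 are in the junction list too. ANKRD1, a further target gene, had neither a peak nor a summit; it was chosen after its values were seen.

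**Figure D5:**
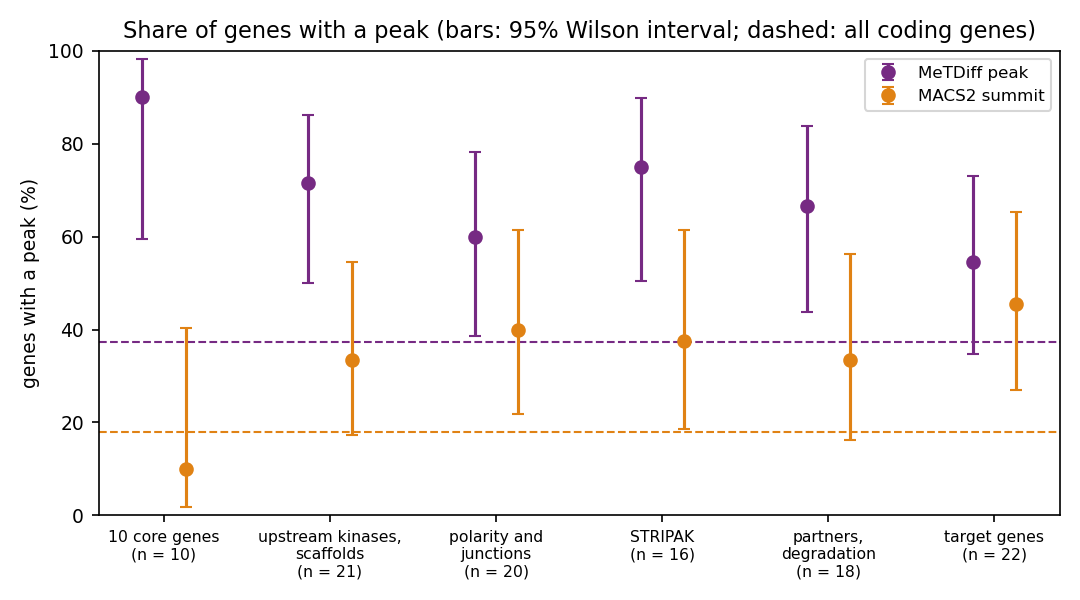
Percent of genes with a MeTDiff peak and with a MACS2 summit in the 10 core genes and the 5 wider lists, with 95% Wilson intervals and the shares over all protein-coding genes (37.2% and 18.0%) as dashed lines. The 10 core genes have the highest MeTDiff share, 90.0%, and the lowest MACS2 share, 10.0%, and their intervals overlap those of the other lists.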

How the data were processed

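RNA precipitated with an anti-m1G antibody and its input were sequenced in 6 libraries of PANC-1 cells. Per the submitters' processing notes, the build was GRCh38 and the tools included STAR 2.7.1 and MACS2 2.2.5. The sources used here give no roles, settings or pooling of libraries. The deposited MACS2 score of a summit is a −log10 value, of either its p-value or its q-value. The deposited MeTDiff columns are a p-value, the log10 of the FDR and a fold, which is a ratio to input, as inferred from their order and values.

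With Python 3.11.15 and scipy 1.17.1, a peak was assigned to a gene when a block overlapped its RefSeq span (GRCh38.p14) by at least 1 bp on its strand, and a summit when it lay in the span. A peak in overlapping genes counts for each. Strand came from the RefSeq promoter table for 15842 protein-coding genes and from the peak list for 1315, TEAD1 and TEAD4 among them. The other 2899 had no peak. For those 1315 genes the strand was that of their own peaks, so the strand rule could not leave them without a peak. Transcript models were not used, so exons and UTRs are not named. A gene end was reached when the midpoint of the joined blocks of a peak lay within 500 bp of it. Peak starts are given 1-based. Assignment was checked on simulated data, for genes whose strand came from the promoter table. Members and lists were chosen with earlier results of these data known. All members are named, and in each wider list the 4 genes of largest fold and the 2 of highest score. Alternative settings changed the thresholds, strand, overlap, end window and background.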

Additional observations from a re-analysis of the deposited data

How the results depend on the processing

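The 9 genes with a MeTDiff peak stayed 9 at an FDR of at most 0.01, and were 8 with folds at or above the list median. Counting either strand could only add genes, and it added none. Keeping only the gene ID with most peaks left 14 peaks, as it had to, because the peaks of each gene carried a single ID. The peaks numbered 11 at an FDR of at most 0.01 and 15 on either strand. They were 13 without the WWTR1 peak that overlaps the opposite strand, an alternative chosen after seeing the data like that of listed start sites. The YAP1 summit was kept with scores at or above the list median and with only summits in the span of a single gene. Looser rules for lying inside a peak could not have lost it. Counted as peaks, not genes, the 5′ end had 4, or 3 with the middle of the whole extent of a peak (also chosen after seeing the data). Peaks at the 3′ end went from 0 to 1 with 1000 bp and to 4 with the last 10% of the span. These 4 lay in TEAD3, SAV1 and NF2, with more than 1 of them in NF2. The median fold was 4.58 over all 14 peaks of the genes, in place of 5.33 over their largest, and 4.24 over all peaks of the list. With scores at or above the list median, summits were held by 4 upstream genes, 2 STRIPAK genes and 3 target genes. By the same setting they were held by 7 polarity and junction genes and 4 genes for partners and degradation. For the thresholds and end windows above, shares over all protein-coding genes are not given, so those counts stand without a background. Among protein-coding genes with a peak in either list 97.0% had a MeTDiff peak and 46.8% a summit, and of the 9 core genes in that background 9 and 1 did. Most genes enter this background through a MeTDiff peak, so its MeTDiff share is high by construction. It therefore cannot test how often the core genes have a MeTDiff peak. No paired analysis was possible because neither list has values per library. No replicate could be left out for the same reason. Unknown depth limits every fold.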

Other observations

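Markers of the cell line were looked up in the same way. The epithelial keratin genes KRT8, KRT18 and KRT19 all had MeTDiff peaks, with largest folds of 4.72, 4.95 and 9.12, and each span held a summit, with highest scores of 52.1, 32.6 and 11.9. The peaks of KRT8 and KRT18 overlap on opposite strands, so those values are not separate. PTPRC, PECAM1 and CHGA, markers of blood, vessel and endocrine cells, had 0 peaks and 0 summits. Among all protein-coding genes only 37.2% had a MeTDiff peak and 18.0% a summit, so these few genes are no check of the cell type. Just outside the 10 genes, peaks within 10000 bp lay 3379 bp from TEAD2 with a fold of 1.75, 4272 bp from TEAD3 with a fold of 3.63 in the span of RPL10A, 3087 bp from TEAD4 with a fold of 1.58, and beside LATS1, in KATNA1, with a fold of 6.75.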
